A study of Homo sapiens with 27 samples.

Results

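The peaks described here are the 8463 regions that the authors listed for N4-acetylcytidine (ac4C) in HepAD38 cells, out of 93612 regions listed for 5 RNA modifications. All listed ac4C peaks were taken, and each was described by its RPM (reads per 1000000 reads of the library) in the pooled ac4C immunoprecipitate (IP) over those in the pooled ac4C input. HepAD38 is a human hepatocellular carcinoma line, derived from HepG2, that carries a hepatitis B virus genome under a tetracycline-responsive promoter. The labels give it as wild type and name no drug, time point or second condition. Of the 27 samples in 9 groups, 3 were labelled ac4C IP and 3 ac4C input, and the deposited list holds 1 pooled value for each of these groups. No value below therefore has a replicate error, and no difference between IP and input was tested. Whether the samples came from separate cultures was not stated. The labels name HepAD38 for the IP and the input alike, but the marker genes described further on differ between the ac4C list and the others. Binding by the antibody and a difference between the RNA that entered the IP and the RNA that entered the input cannot be told apart in these pooled values, and this holds for each ratio given here.

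N4-acetylcytidine carries an acetyl group on the exocyclic amine of cytidine. The acetyltransferase NAT10 makes it in 18S ribosomal RNA and, with the adaptor THUMPD1, in transfer RNA, and NAT10 has also been linked to acetylation of cytidines in messenger RNA. In an antibody experiment of this kind RNA is fragmented, fragments bound by an antibody to ac4C are sequenced, and the input is the same kind of RNA sequenced without that step. A ratio above 1 means that a region held a larger share of the IP reads than of the input reads, and it does not by itself count acetylated molecules. In bulk RNA of this kind, fewer cells that make a transcript and less of that transcript per cell cannot be told apart.

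The sequences that follow show the first 30 transcribed bases of genes whose start was fully covered by an ac4C peak. They are written 5′ to 3′ with cytidines, the base that ac4C modifies, in capitals, and were read from RefSeq (GRCh38.p14). Of the 270 peaks that covered such a start outside chromosomes 8 and Y, these 5 had the highest IP RPM.
HSP90AA1 (chr14:102087015-102087044, minus strand): agttgCttCagCgtCCCggtgtggCtgtgC
NPM1 (chr5:171387849-171387878, plus strand): CtttCCCtggtgtgattCCgtCCtgCgCgg
CBX3 (chr7:26201443-26201472, plus strand): gCgCCagCCgCtgaggCtgCCaagCagaaa
HNRNPM (chr19:8444975-8445004, plus strand): aCaCaaagCCCagaCgCggagaaaatggCg
TPM3 (chr1:154183189-154183218, minus strand): atttCagggCgtagCaggCggaagtaaggg

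Among the 9 such peaks without a single input read, the next 4 had the highest lower bounds of the ratio.
ST6GALNAC3 (chr1:76074746-76074775, plus strand): ggatCtgCgggaatgtgggCtggagaggtC
KRT4 (chr12:52814087-52814116, minus strand): aCtCaCCggCCtgggCCCtgtCaCttCtCt
AMBN (chr4:70592256-70592285, plus strand): gagaagtaCagagCaagtCCCaCgCaCagt
INTS6L (chrX:135520660-135520689, plus strand): agtCtggggCgagCgCtCtagtgagCgCgg

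Cytidines made up 8 of the 30 bases in HSP90AA1, 10 in NPM1, 10 in CBX3, 8 in HNRNPM and 4 in TPM3. In the second set they made up 4 in ST6GALNAC3, 13 in KRT4, 8 in AMBN and 7 in INTS6L, so the ranges of the sets overlapped. The peak over the NPM1 start had 5398 RPM in the IP and 2658 in the input, a ratio of 2.03. The TPM3 peak, over a gene for a tropomyosin of the actin filament, had 677 and 74.8, a ratio of 9.05 with a 95% interval of 8.85 to 9.25 for counting error. The ST6GALNAC3 peak had 168 IP reads and none in the input, at least 1089-fold higher in the IP when 3 input counts are taken as the most that a count of 0 allows.

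The deposited RPM values are the authors' own. All of them were whole multiples of the value of 1 read within 0.1 read, which placed the pooled depth at 17135274 reads for the IP and 333220800 for the input, an input 19.4 times deeper. Each interval is the 95% exact (Clopper-Pearson) interval of the IP share of a peak's reads, turned into a ratio. It covers counting error only, and reads without a molecular count are not independent molecules. Where a peak had no input read, 3 pooled input counts were used as a floor, and the ratio is a lower bound written as "at least". The ac4C IP was also the shallowest of the 8 antibody libraries pooled in this way, the next being the m5C IP at 118320068 reads. The ac4C peaks held 18.7% of the IP depth and 4.88% of the input depth. In the lists for 1-methyladenosine (m1A), 5-methylcytidine (m5C) and 7-methylguanosine (m7G), the IP shares were 82.2%, 88.3% and 74.0%, and the input shares 69.2%, 52.9% and 55.0%.

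In all 8463 ac4C peaks the IP value exceeded the input value, and the ratio ran from 1.52 to 5564 around a median of 11.9 (quartiles 6.38 and 27.3). Since the authors listed these regions from the same libraries, an excess in the IP is what a peak had to have, and it is no separate finding. The ratio was 10 or more in 4847 peaks (57.3%) and 100 or more in 901 (10.6%). In the m1A, m5C and m7G lists the share at 10 or more was 11.4%, 6.17% and 1.03%, and the medians were 1.67, 1.01 and 1.36. In those lists 33.0%, 49.7% and 27.7% of peaks were below 1, against 0.00% for ac4C. The reads were unevenly spread: the 10 peaks with the highest RPM held 18.8% of the summed IP RPM, the highest 100 held 43.8% and the highest 1000 held 76.0%.

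**Figure D1:**
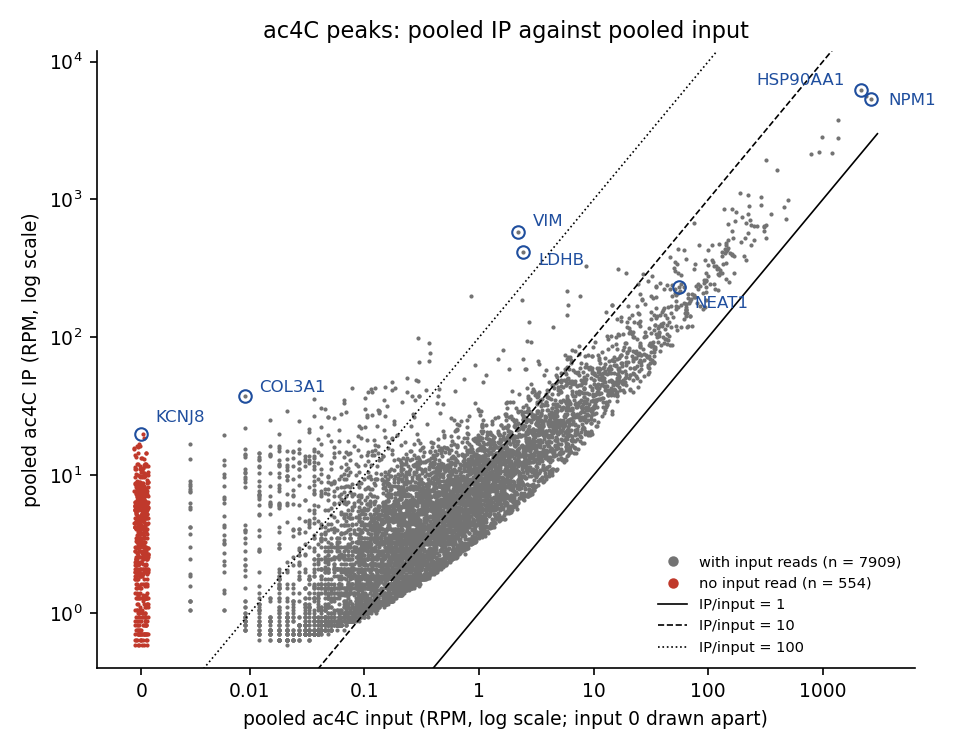
Each point is an ac4C peak, with pooled input RPM on the x axis and pooled IP RPM on the y axis, both on log scales, and peaks without input reads are drawn as a separate strip at 0. Lines mark ratios of 1, 10 and 100, and circles mark the peak with the highest IP RPM of 7 genes. All peaks lie above the line for 1, HSP90AA1 and NPM1 lie at the upper right near it, and VIM and LDHB lie above the line for 100.

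The ratio fell as the input rose. Peaks with over 10000 input reads, 241 in number, had a median of 2.79 and none reached 10. The 1799 peaks with 101 to 300 input reads had a median of 9.90, the 1014 with 11 to 30 had 25.9, and the 554 without an input read (6.55%) had a median of at least 418. Peaks without an input read made up 0.195%, 0.788% and 0.0177% of the m1A, m5C and m7G lists. Across the 7909 peaks with input reads, Spearman's rho of the ratio with input RPM was -0.79, a description of peaks that share both libraries and of a ratio that has the input in it. The lower edge of the list moved in the same way. The fewest IP reads in a listed peak were 10 without an input read, 11 with 11 to 30 input reads and 934 with over 10000, and the lowest ratios were at least 64.8, 9.72 and 1.52. A median of a gene list is therefore given beside its median number of input reads.

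**Figure D2:**
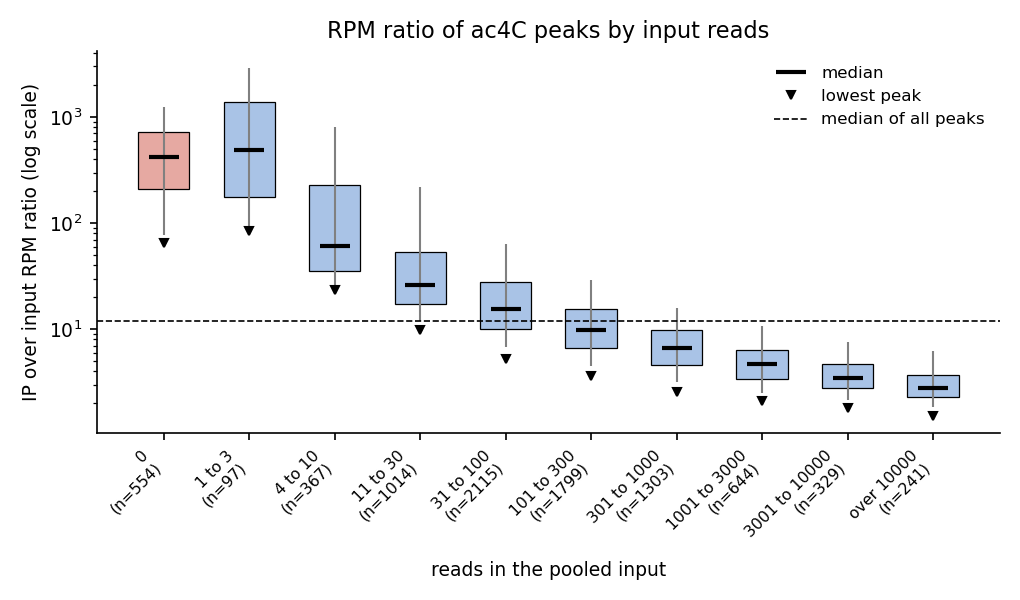
The IP over input RPM ratio (log scale) of ac4C peaks is shown by the number of pooled input reads, with boxes from the lower to the upper quartile, whiskers from the 5th to the 95th percentile, the median as a thick line and the lowest peak as a triangle. The box without input reads holds lower bounds, medians fall from 486 with 1 to 3 input reads to 2.79 with over 10000, and the lowest peak falls with them.

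The peaks that held most reads belonged to messages of nuclear, nucleolar and chaperone proteins, and their ratios were low. RPM here is not divided by the width of a peak, so this ranks where the reads lay and not how much of each message there was. A peak of HSP90AA1, the inducible cytosolic HSP90 chaperone, at chr14:102084818-102101896 covered 925 bases in 6 blocks and had 6277 RPM in the IP and 2175 in the input, a ratio of 2.89 (2.87 to 2.90). PTMA, which encodes the small acidic nuclear protein prothymosin alpha, had 5681 and 2396 RPM at chr2:231708725-231712883, a ratio of 2.37 (2.35 to 2.39). NPM1, the nucleolar chaperone nucleophosmin, had 5398 and 2658 RPM at chr5:171387835-171392940, a ratio of 2.03 (2.02 to 2.04). All 3 spans run across introns that the blocks leave out.

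The next peaks by IP reads were those of pre-mRNA binding and histone-binding proteins. HNRNPA1 had 3751 RPM in the IP and 1348 in the input, and HNRNPA2B1, also a splicing regulator, had 2846 and 989. ANP32B, an acidic nuclear phosphoprotein, had 2794 and 1370 RPM. A second HSP90AA1 peak had 2202 and 922 RPM, and NCL, the nucleolar protein nucleolin, had 2157 and 1210. Ratios of these 8 peaks stayed between 1.78 (NCL) and 2.89 (HSP90AA1), below the list's lower quartile of 6.38, and their 7 genes all had peaks in at least 1 of the m1A, m5C and m7G lists.

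The lowest ratios of the list also belonged to peaks with over 10000 input reads. HSP90AB1, the constitutive cytosolic HSP90, had 723 RPM in the IP and 475 in the input at chr6:44250301-44250325, a ratio of 1.52 (1.49 to 1.55). HSP90B1, the HSP90 of the endoplasmic reticulum, had 1.63 (1.58 to 1.69), and HMGB1, a chromatin protein, had 1.65 (1.58 to 1.73). The nuclear long noncoding RNA MALAT1 had 530 and 319 RPM, a ratio of 1.66, in a peak that overlapped a listed peak on the other strand. A 75-base peak of NCL had 363 and 214 RPM, a ratio of 1.69. With 2059 to 12386 IP reads each, counting error was small here, and all 5 intervals stayed above 1.

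The 5 peaks nearest the median ratio, among those with at least 100 IP reads, had from 6.13 to 71.7 RPM in the IP. KIF14 and BUB1, which act in cell division, had 6.13 against 0.513 RPM and 14.6 against 1.23 RPM. CBX2, a Polycomb protein, had 6.30 against 0.528 RPM, and ZNF799 had 105 IP and 171 input reads, as did KIF14. SQLE, the squalene epoxidase of sterol synthesis, had 71.7 against 6.01 RPM. The ratio of all 5 was 11.9, with counting intervals from 9.27 to 15.3 in KIF14 and from 11.1 to 12.8 in the more deeply read SQLE.

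The highest ratios with input reads were found in peaks that held very few of them. The gene for the collagen of reticular fibres, COL3A1, had 638 IP reads and 3 input reads at chr2:188999470-189002980, 37.2 against 0.00900 RPM, a ratio of 4137 (1409 to 20107). CCDC80, a secreted protein of the extracellular matrix, had 286 and 1 reads at chr3:112616772-112619055, a ratio of 5564 (990 to 220434). The transcription factor gene ZFHX4 had 334 and 2 reads, a ratio of 3249 (892 to 26927). These 3 intervals each span more than a factor of 10 and overlap one another, so the order of the 3 ratios was not resolved.

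The other 5 peaks named by the highest lower bound had 1 to 7 input reads. PPP1R3A, the glycogen-targeting phosphatase subunit of muscle, had 377 IP and 3 input reads. RNF32 had 224 and 1 reads, and PRTFDC1 had 221 and 2. BIN1, a membrane-bending protein, had 434 and 5 reads, a ratio of 1687 (718 to 5225). JAG2, a ligand of Notch receptors, had 502 and 7 reads, a ratio of 1394 (672 to 3487). Of the 8 genes named by the highest lower bound, 1 had a peak in any of the other 3 antibody lists. That gene was CCDC80, with 0.811 RPM in the IP and 0.0705 in the input over 2 m5C peaks.

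Peaks without any input read reached bounds of similar size. KCNJ8, a subunit of ATP-sensitive potassium channels of vascular smooth muscle and pericytes, had 340 IP reads at chr12:21765305-21765579, at least 2204-fold higher in the IP. TPSG1, a mast cell tryptase, had 319 IP reads and was at least 2068-fold higher. ADD2, an adducin of the membrane skeleton, had 289 IP reads and was at least 1873-fold higher. GUCY1A1, a subunit of the nitric oxide receptor guanylate cyclase, had 280 reads, the matrix protease gene ADAMTS9 had 277 and the fibrillar collagen gene COL5A1 had 276, each with at least 1789-fold more RPM in the IP. SLC2A5, a fructose transporter, had 270 IP reads and C16orf74 had 264. Of these 8 genes, 1 was listed for another modification.

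The genes with such peaks were seldom listed elsewhere. A peak without an input read was found in 398 genes named alone, and 101 of them (25.4%) had a peak in the m1A, m5C or m7G list. Of the 4321 other genes with an ac4C peak, 3933 (91.0%) did. All ac4C peaks together held no input read in 245 genes, of which 36 (14.7%) were listed elsewhere. Each list names genes by what passed in its own libraries, so these shares describe the lists and no test was run on them.

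Gene lists differed in where their peaks lay on the range of ratios. Their medians are given beside 11.96, the median of the 8341 peaks that name 1 gene, with its 105 median input reads. Of those 8341 peaks, 57.3% were at 10 or more, and 22.1% of all coding genes had an ac4C peak. Lists of growth and housekeeping functions lay below that median, though more than 22.1% of their genes were listed. Cytosolic chaperones (54 peaks of 17 of 23 genes) had a median of 3.11 at 2704 input reads, and 8 of 54 were at 10 or more. SR and hnRNP proteins, which bind pre-mRNA, had a median of 4.05 at 1635 input reads over 82 peaks of 23 of 30 genes. Translation factors had 3.96 at 857 input reads over 58 peaks, and the unfolded protein response had 3.94 at 1022 over 16.

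Cytosolic ribosomal protein genes had 55 peaks in 35 of 79 genes, above the 22.1% of all coding genes. Their median was 4.54 at 2341 input reads. In 12 of 55 the ratio was 10 or more, against 57.3% of all peaks, and none lacked input reads. Summed over its peaks, RPS2 had 1345 RPM in the IP and 253 in the input, a ratio of 5.32 (5.24 to 5.40). RPL5 had 634 and 305 RPM, a ratio of 2.08 (2.04 to 2.12), and RPL27 had 471 and 150, a ratio of 3.14 (3.06 to 3.21). These sums follow the peak with most reads: the 2 peaks of RPL5 had ratios of 2.07 and 14.3, and those of RPS2 had 4.88 and 8.63, so single peaks did not keep the order of the sums.

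Nucleolar and box C/D proteins had a median of 5.55 at 499 input reads over 42 peaks of 15 of 18 genes, above the 22.1% of all coding genes. Some of these proteins assemble the small nucleolar RNPs that guide modification of ribosomal RNA. NOP58, a core protein of those particles, had 712 RPM in the IP and 232 in the input, a ratio of 3.07 (3.01 to 3.12). DKC1, the pseudouridine synthase dyskerin, had 259 and 138 RPM over 4 peaks, a ratio of 1.87 (1.81 to 1.93). Summed over the peaks of each gene, the list's median was 3.35. Genes of cell cycle and mitosis had a median of 7.69 at 328 input reads (52 peaks), actin, tubulin and myosin genes 6.86 at 381.5 (62 peaks), and nuclear genes of oxidative phosphorylation 6.04 at 800.5 (22 peaks). TOP2A, the mitotic topoisomerase, had 304 and 99.5 RPM over 7 peaks.

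Collagen and matrix genes stood at the other end. They had 96 peaks in 27 of 52 genes, above the 22.1% of all coding genes. The median ratio was at least 220 at 12 input reads. At 10 or more were 90 of 96 peaks, against 57.3% of all peaks. Without the 28 peaks that had no input read the median was 167. Within its own class of input reads, 72 of the 96 peaks (75%) lay above the class median, against 49.9% of all peaks that name 1 gene. That share was 70.5% for mesenchymal markers, 69.2% for HOX genes and 61.3% for glycolysis. In the remaining lists it was at most 50%, and lowest, at 23.8%, for nucleolar and box C/D proteins. In log2 units the median distance from the class median was 1.46 for collagen and matrix peaks and -0.291 for cytosolic chaperones. Summed over the collagen and matrix list, the peaks held 1368 RPM in the IP and 19.1 in the input. Of the 27 genes, 15 had no peak in the other 3 antibody lists, against 685 of all 4719 ac4C genes (14.5%).

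Several fibrillar collagen genes had 7 to 10 peaks each. COL11A1 had 233 RPM in the IP and 0.912 in the input over 9 peaks, a ratio of 255 (227 to 288), and COL5A2 had 202 and 1.87 over 9 peaks, a ratio of 108 (99.2 to 118). COL3A1 had 167 and 0.585 RPM over 10 peaks, and COL1A1 had 66.7 and 0.246 over 7. POSTN, the matricellular protein periostin, had 182 and 0.669 RPM over 8 peaks, a ratio of 271 (237 to 312). SERPINH1, the collagen chaperone of the endoplasmic reticulum, had 84.3 and 7.14 RPM, a lower ratio of 11.8 (11.1 to 12.6). SERPINH1 also had m1A and m7G peaks, while COL11A1, COL5A2, COL3A1, COL1A1 and POSTN had peaks for ac4C only among the 4 antibody lists.

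Fibroblast and mesenchymal markers had 44 peaks in 19 of 31 genes, above the 22.1% of all coding genes. The median was at least 132 at 20 input reads. At 10 or more were 34 of 44 peaks, against 57.3% of all peaks. Without the 13 peaks lacking input reads the median was 34.6. VIM, the intermediate filament protein vimentin, had 612 RPM in the IP and 2.34 in the input over 2 peaks, a ratio of 262 (244 to 282), and no peak in the other lists. Both VIM peaks overlapped a listed ac4C peak on the other strand. PRRX1 and TWIST1, transcription factors of mesenchyme, had 51.9 against 0.0900 RPM and 28.7 against 0.117 RPM. MYL9, a smooth muscle myosin light chain, had 43.1 against 0.0750 RPM. ZEB2, a repressor of epithelial genes, had 423 IP reads over 5 peaks and none in the input. Its relative ZEB1 had 331 reads in the IP against 1427 in the input, or a ratio of 4.51 (3.99 to 5.09), so members of this list did not all have high ratios.

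HOX genes pattern the body axis. In the ac4C list 7 of 46 genes of the HOX clusters had 13 peaks, 9 of them without an input read. Among all coding genes, 22.1% had an ac4C peak, so HOX genes were not listed more often than others. All 13 peaks were at 10 or more, against 57.3% of all peaks. The median was at least 227 at 0 input reads, or 76.2 over the 4 peaks with input reads. With 1 value per gene it was at least 506. The long noncoding RNA HOTTIP, at the distal end of the HOXA cluster, had 75, 84 and 192 IP reads in its 3 peaks and none in the input. HOXA13, which lies beside it, had 258 IP and 6 input reads over 3 peaks, and HOTAIR, a noncoding RNA of the HOXC cluster, had 155 IP reads and no input read over 2. HOXC8 had 34 and 53 reads, a ratio of 12.5 (7.86 to 19.6), the lowest of the list. In the m5C list 8 of the 46 genes had 13 peaks, 3 of them without an input read. Their median ratio was 9.32, against 1.01 for all m5C peaks. The m1A and m7G lists held 5 and 4 of the 46, with medians of 1.26 and 1.78.

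Hepatocyte genes of the labelled cell type were less often in the ac4C list than in the m1A, m5C and m7G lists. The ac4C list is the smallest of the 4, with 8463 peaks in 4719 genes, against 29708 in 8820 for m1A, 21827 in 8535 for m5C and 16942 in 7693 for m7G. Of 20052 protein-coding genes, 22.1% had an ac4C peak, 41.2% an m1A peak, 39.3% an m5C peak and 35.9% an m7G peak. Of 10 markers, among them ALB, APOA1, TF and TTR, 1 had an ac4C peak, against 9 in each of the m1A, m5C and m7G lists. In so short a list, 1 gene is not far from the 22.1% of all coding genes. The listed gene was HNF4A, the nuclear receptor that maintains hepatocyte identity, with 4.96 RPM in the IP and 0.771 in the input, a ratio of 6.43 (4.97 to 8.25). Over the marker peaks of each list, the summed RPM was 4.96 in the IP and 0.771 in the input for ac4C. In the m1A, m5C and m7G lists the same sums were 14660, 2790 and 10613 RPM in the IP, with 27730, 4750 and 11960 in the inputs. A gene can be missing from a list of peaks because its IP share did not exceed its input share, so this does not give the level of these transcripts in the ac4C libraries.

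Plasma proteins of hepatocytes gave 5 of 59 genes in the ac4C list, against 45, 35 and 42 in the m1A, m5C and m7G lists, beside the shares of all coding genes given above. The median of the 6 ac4C peaks was 6.52 at 240.5 input reads. Coagulation factor F7 had 436 RPM in the IP and 141 in the input, a ratio of 3.10 (3.02 to 3.18). HP, the haemoglobin-binding haptoglobin, had 30 IP and 93 input reads. Hepatocyte transcription factors gave 5 of 23 genes for ac4C, near the 22.1% of all coding genes, against 17, 18 and 14 for m1A, m5C and m7G. Hepatic lipid and sterol synthesis gave 13 of 35, above that share, against 30, 21 and 25. Markers of other liver cells were few: 0 of 15 endothelial markers had a peak in any of the 4 lists, and 1 of 15 leukocyte markers, CD68, had an ac4C peak. Collagen and matrix genes with a peak numbered 27 for ac4C and 13 to 17 in the other lists, and mesenchymal markers 19 and 9 to 11, as the plot of marker genes shows. How far these marker differences bear on the ac4C ratios was not tested, and whether the IP and the input held RNA of the same cells was not tested either.

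Genes of glycolysis split between low and high ratios, with a median of 24.3 at 138 input reads over 31 peaks. These lay in 10 of 21 genes, above the 22.1% of all coding genes. PFKM and PFKP held 12 of the 31 peaks, and with 1 value per gene the median was 7.44, below that of all peaks. LDHB, the lactate dehydrogenase subunit of heart, had 449 RPM in the IP and 2.65 in the input, a ratio of 169 (158 to 182), and no peak in the other lists. Its partner subunit LDHA had 87.1 and 34.6 RPM, a ratio of 2.52 (2.38 to 2.66). PFKP, the platelet isoform of phosphofructokinase, had 70.2 and 0.186 RPM over 5 peaks, a ratio of 377 (292 to 495). PFKM, the muscle isoform, had 59.2 and 1.62 RPM over 7 peaks, a ratio of 36.6 (32.9 to 40.7), and the liver isoform PFKL had 8.88 (5.85 to 13.3) in a single peak. These intervals leave out the spread between peaks: PFKM peaks ran from 17.1 (13.2 to 21.9) to 203 (112 to 403), and the interval of the latter overlaps those of the PFKP peaks. PKM and ENO1, with 164 and 65.6 RPM in the input, had ratios of 2.68 and 4.40.

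In the other metabolic and response lists no peak lacked input reads. Hepatic lipid and sterol synthesis had a median of 8.61 at 161 input reads over 22 peaks of 13 of 35 genes, with SCD, the stearoyl-CoA desaturase, at 51.2 and 25.6 RPM and SREBF1, the transcription factor of lipogenesis, at 14.6 and 1.22. Innate RNA sensing had 8 peaks in 8 of 27 genes, beside 22.1% of all coding genes. Their median was 12.6 at 129.5 input reads, near that of all peaks. MAVS, the mitochondrial adaptor of RNA sensing, had a ratio of 4.23 (3.83 to 4.67), and the interferon-induced IFIT1 had 22.8 (17.0 to 30.7). Replacement and linker histone genes had no ac4C peak in 10 genes, beside 22.1% of all coding genes with one. Of the 10, 9 were listed for another modification.

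NAT10 itself had 2 ac4C peaks. A 50-base peak at chr11:34105729-34105778, within 500 bases of a listed start, had 87 reads in the IP against 228 in the input, or a ratio of 7.42 (5.73 to 9.54), and a 25-base peak at chr11:34122525-34122549 had 16 and 13 reads, a ratio of 23.9 (10.8 to 54.1). SIRT7, a nucleolar deacetylase, had 240 and 218 reads at chr17:81918052-81918176 and 215 and 288 at chr17:81917621-81917830, with ratios of 21.4 (17.8 to 25.8) and 14.5 (12.1 to 17.4). THUMPD1 had no ac4C peak. All 3 genes were listed for m1A, m5C and m7G. Over its 2 ac4C peaks NAT10 had 6.01 IP RPM, while its m1A peaks summed to 252 RPM in the IP and 512 in the input.

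A single gene could hold peaks of very different ratio. Of the 4719 genes named alone, 2754 had 1 peak and 192 had 5 or more, up to 16 in MYO10. In the 169 genes with at least 5 peaks that had input reads, the highest ratio was 5.05 times the lowest in the median gene. The spread was under 3 in 38 genes and 10 or more in 41. It was not compared with the spread among peaks of different genes. The quartiles of all peaks were 6.38 and 27.3. A peak without an input read and a peak with input reads were found together in 153 genes, and 10 of these had 1000 input reads or more over their peaks.

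MYO10, an unconventional myosin of filopodia, had the widest spread. The gene lies on the minus strand. Its 6 most 5′ peaks, from chr5:16764389 to chr5:16936096, had 3 to 11 input reads in 4 cases and none in 2, and the ratios of those 4 ran from 89.4 to 1050. The 10 peaks towards the 3′ end had 35 to 23547 input reads and ratios from 2.67 to 24.7. At chr5:16702587-16703097 there were 3232 reads in the IP against 23547 in the input, or a ratio of 2.67 (2.57 to 2.77). Over the 14 MYO10 peaks with input reads, that peak held 23547 of 25178 input reads and 3232 of 4471 IP reads. Reads under the listed peaks were therefore concentrated in the 3′ part in the IP as well as in the input, and more so in the input. Reads of the gene outside listed peaks are not known.

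In some genes the peaks lay close together. The 5 peaks of PFKP, with 6, 6, 17, 10 and 23 input reads, lay between 334 and 418, and each interval held the ratios of the other 4. The 5 peaks of HSP90AA1 lay between 2.22 and 3.09, and those of HSPA8, the constitutive cytosolic HSP70, between 2.18 and 3.18. Spreads were wider in other genes. In AHNAK, a giant scaffold protein, 13 peaks ran from 14.3 to 642, the latter with 1 input read. COL1A1 peaks with input reads ran from 154 to 370, and those of COL3A1 from 89.4 to 4137.

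Width and place in the gene moved with the ratio less than the input did. Of all peaks, 2342 covered 25 bases, and 99.1% of widths were multiples of 25, so the edges follow a grid. Peaks of up to 25 bases had a median ratio of 9.01, and those of 151 to 200 bases had 19.9. In wider peaks it was lower again, 16.75 at 201 to 300 bases and 9.825 over 300 bases. RefSeq starts were matched for the genes of 6784 peaks, where 5191 of the 27305 genes in the table have several starts. Each peak was placed by the midpoint of its covered bases, so a long spliced peak that covers a start, as in NPM1 and HSP90AA1, can have its midpoint elsewhere. With the midpoint within 500 bases of a listed start the median was 12.1 over 966 peaks, within 500 bases of the gene's end 16.9 over 390, and elsewhere 11.2 over 5428. Median input reads were 156, 63.5 and 107.

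Base composition of the starts is given as a description. The 628 start windows of 50 bases under a peak had 27.4% ± 8.06 cytidine (SD over windows), against 29.7% ± 9.42 in the 4897 other windows of genes with an ac4C peak and 29.3% ± 9.47 in the 16673 windows of coding genes without one. The letters CCG on the transcribed strand occurred in 73.4%, 69.5% and 59.3% of these windows, and in 61.9% of all 22198. On the other strand, read as CGG, they occurred in 81.5%, 75.2% and 62.7%, and in 65.9% of all. Guanosine made up 36.3%, 35.5% and 32.8%. The windows of a gene overlap where its starts are close, and no test was made.

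Long noncoding RNAs had 236 peaks with a median ratio of 20.9, and 34 (14.4%) lacked input reads, against a median of 11.7 and 6.37% for the 7957 peaks of coding genes. Their median input reads differed too, 49.5 against 109. HCG11, chosen after its values were seen, had peaks with 176 IP and 2 input reads and with 192 and none. NEAT1, the scaffold of nuclear paraspeckles, also chosen so, had 232 RPM in the IP and 56.1 in the input in its most read peak, a ratio of 4.14 (4.005 to 4.29). Of all peaks, 225 overlapped a listed peak on the other strand, in 115 pairs, and in 37 pairs both had the same number of IP reads.

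Peaks overlapped 12 of 1562 microRNA hairpins in the RefSeq table. Of the 9 mature microRNAs overlapped, these 4 lay wholly within a peak, with the seed, bases 2 to 8 from the 5′ end, in capitals.
hsa-miR-3655: gCUUGUCGcugcgguguugcu
hsa-miR-1281: uCGCCUCCuccucuccc
hsa-miR-3917: gCUCGGACugagcagguggg
hsa-miR-6728-3p: uCUCUGCUcugcucuccccag

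No seed was shared among these 4. The miR-3655 peak, which also names the splicing factor gene IK, had 29.0 IP and 4.60 input RPM, a ratio of 6.31 (5.69 to 6.98). The miR-1281 peak had 3.68 and 0.147 RPM, a ratio of 25 (16.9 to 37.1), the miR-3917 peak, shared with STMN1, had 13.2 (9.51 to 18.1), and the miR-6728-3p peak had 15.3 (10.3 to 22.7). The libraries were made with a kit for messenger RNA, and reads of the microRNA and of the transcript around it cannot be told apart.

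At places listed with the same coordinates for another modification, inputs could be set side by side. The ac4C list shared 88 such peaks with m1A, 55 with m5C and 119 with m7G. The median input RPM of the other library over that of ac4C was 0.704, 1.81 and 1.18, while the median ac4C ratios were 7.44, 8.10 and 9.26 against 2.90, 0.509 and 2.94 in the other list. The ac4C ratio was the higher in 68 of 88, 52 of 55 and 114 of 119 peaks. All listed ac4C peaks were above 1, unlike those of the other lists, so this count is no separate finding. At TPM3 the ac4C peak had 677 IP and 74.8 input RPM and the m7G peak 412 and 91.4. No shared peak lacked ac4C input reads, so the 554 peaks without an input read had no such counterpart.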

How the data were processed

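RNA of HepAD38 was sequenced as immunoprecipitate and input. The kit was stranded, made for mRNA and tagged molecules with unique identifiers, per the labels' protocols. Whether reads were deduplicated, and which peak caller was used, are not given in the sources used here. The submitters' processing notes list hg38, HISAT2, StringTie and DESeq and assign no role to any. The authors deposited RPM values of each peak, 1 pooled IP and 1 pooled input value, per the file headers. The authors' deposited log2 enrichment is not the log2 of the RPM quotient, and was used only in a rank correlation, where Spearman's rho with the ratio was 0.96 over 7909 peaks. The authors' deposited adjusted p-value served only to make a stricter list.

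From these, Python 3.11.15 with numpy 2.4.6, pandas 2.3.3 and scipy 1.17.1 recovered depths from the RPM steps, peak reads (whole within 0.1 read in 100% of values) and the quotient of IP over input RPM. Exact 95% intervals cover counting error only, and an input of 0 was set to 3 pooled counts. Recovery and intervals were tested on simulated counts drawn as independent. That test cannot show how far the intervals hold for real reads, which are not independent molecules. No count model was run, since no value per library was analysed here. Peaks were described at ratios of 10 and 100. Symbols were updated through RefSeq (GRCh38.p14, 59792 genes), which changed 116 peaks, and 32 peaks had no current symbol. Values per gene leave out 122 peaks with several gene names. The builds of the files (hg38) and of RefSeq (GRCh38.p14) share primary chromosome coordinates, and 9 peaks lay on other contigs.

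Named were, among peaks of 1 gene outside chromosome Y, the 8 with the highest lower bound, the 8 with the highest bound without input, the 8 with the most IP RPM, the 5 lowest, the 5 nearest the median with at least 100 IP reads, up to 4 genes of each list by summed IP RPM, and the genes of the ac4C acetyltransferase list. Other members of a list, and the genes shown for their spread within a gene, were chosen after their values were seen. The members and the 22 gene lists, with 668 genes, were chosen with earlier results of these data known. Genes were placed on starts from RefSeq windows of 250 bases before to 50 after a start.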

Additional observations from a re-analysis of the deposited data

How the results depend on the processing

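No paired analysis was possible because the list holds 1 pooled value for the 3 IP libraries and 1 for the 3 input libraries, so the replicate block and leaving out a library were not run. The median ratio of 11.9 was 11.1 with peaks of input 0 left out, 9.39 over peaks with at least 20 IP and 20 input reads, and 10.7 over peaks below the median of the authors' adjusted p-value. At a fold of 20 in place of 10, 2781 of 8463 peaks remained above it. Without peaks that overlap one on the other strand, the share of the IP depth was 18.2% and of the input depth 4.80%. With 1 value per gene, the median was 3.35 for nucleolar and box C/D proteins and 255 for collagens and matrix genes. All 20 lists stayed within the 95% interval of their own median over peaks when peaks of several genes were given to each. With 1 value per gene, the medians of 18 other lists did so too. That interval takes peaks as independent, which peaks of 1 gene are not. In the lists with fewest peaks it was their full range, so staying within it does not show a median to be stable. Of those 18, glycolysis moved from 24.3 to 7.44, leukocyte markers (2 peaks) from 14.6 to 3.21 and HOX genes from at least 227 to at least 506, each by over 1.5 times. Leaving out peaks of input 0, chosen after seeing the data, gave 76.2 for HOX genes, and 4 other lists with such peaks stayed within their interval, mesenchymal markers moving from at least 132 to 34.6. With 1 read added to both libraries, the ratio of 44 named peaks stayed within its counting interval, which 1 read could hardly leave. For peaks without an input read that interval has no upper end, and KCNJ8 moved from at least 2204 to 6631. This outcome is therefore no sign of stable ratios. The cause of these shifts was not tested. Few input reads limit the ratio: 554 peaks without one have only a lower bound, and 97 have 1 to 3.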

Other observations

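The genes named here were chosen after their values were seen. MAGEA4 and MAGEA11 are X-linked genes normally expressed in the germ line. MAGEA4 had 5 ac4C peaks with 242, 54, 352, 54 and 752 IP reads against 14, 2, 11, 0 and 50 input reads. Its ratios with input reads ran from 292 to 622. MAGEA11 had 426 reads in the IP against 9 in the input in one peak, or a ratio of 920 (480 to 2027), and 239 IP reads with no input read in the other. In CUL2, a scaffold of ubiquitin ligases, and PAICS, an enzyme of purine synthesis, a peak without an input read stood beside peaks with 9 to 84 and 104 to 5344 input reads. In CBX5, the heterochromatin protein HP1 alpha, the most 5′ peak had 80 reads in the IP against 10 in the input, or a ratio of 156 (80.3 to 337), and the other 6 peaks ran from 2.86 to 18.2.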
